A study of Mus musculus with 24 samples.

Results

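The hippocampus of old female mice (FO) was compared with the hippocampus of old male mice (MO), 4 mice of each sex, all 24 months of age. Arrays were assigned by their group labels alone, which gives 8 of the 24 arrays in the series. The other 16 arrays hold young (3 months; FY, MY) and adult (12 months; FA, MA) mice of both sexes, and are used here only to estimate the spread between mice and to set the old sex difference beside those of younger ages. All mice were untreated C57BL/6 animals of the NCr substrain from the National Institute on Aging colony. The old females had stopped cycling and were in permanent diestrus. They had been followed by daily vaginal lavage for some weeks, and lavage is described for the females only, so that sex and this handling cannot be told apart. RNA came from the whole dissected hippocampus, with the Ammon's horn fields and the dentate gyrus together, and each mouse gave 1 array. Autosomal genes are described below by cell type and pathway.

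Microglia are the resident phagocytes of the brain. They sense damage and microbial products through Toll-like receptors, Fc receptors and the receptor Trem2, release chemokines, and make most of the C1q of the brain, which starts the classical complement cascade and can tag synapses for removal. Astrocytes support synapses and take up transmitter, and in injury and ageing they switch on reactive genes, while interferons raise a separate set of antiviral genes in most cell types. The females' Xist, the RNA that silences 1 X chromosome, and the males' Y-linked Eif2s3y served as a check of the labels. Xist had intensities of 211.8, 188.4, 251.3 and 139.3 in the FO arrays, against values between -0.265 and 4.31 in the MO arrays. Eif2s3y lay between -5.58 and 3.33 in the FO arrays, against 214.8 to 392.2 in the MO arrays. All 8 arrays matched the sex on their labels.

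Values are normalized probe intensities on a linear scale with background subtracted, so they can fall below 0. They were floored at 16 and put on a log2 scale, and they set one array against another for the same probe but not one probe against another. Only probes with intensities over 16 throughout the 4 FO arrays, or throughout the 4 MO arrays, were retained. This kept 11509 of 25697 probes (44.8%), of which 10492 lie on autosomes and stand for 7968 genes. The autosomal probe nearest to the limit on the inside, for Cnr1, had a lowest FO value of 16.01, and the nearest on the outside, for Klf6, had a lowest FO value of 15.97. Between 11799 and 12184 probes per old array were above the floor, and Pearson's r between old arrays over the kept probes was 0.951 to 0.994. Every list count below covers only the members that were kept, and a member could be kept through the group in which it is high. The log2 fold change of FO over MO was positive in 4972 of the 7968 autosomal genes. Counts of positive members below stand beside that share.

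Defining markers of the labelled tissue were present. All 4 markers each of astrocytes and of hippocampal neurons were kept, as were all 4 microglial markers on the array, P2ry12, Tmem119, Cx3cr1 and Aif1. T cell markers Cd3e and Cd8a were under 16 in all 8 old arrays. Several old arrays stood apart in genes of other tissue. MO replicate 3 scored 0.503 on the somatosensory cortex pyramidal cell list, against -0.17 to 0.057 in the FO arrays and -0.156 to -0.07 in the other MO arrays, and its dentate granule cell score was -1.081, against -0.172 to 0.5 in the FO arrays and -0.313 to 0.325 in the other MO arrays. A score here is the mean log2 value of a list in an array, centred over the 8 old arrays. MO replicate 1 scored 1.739 on the choroid plexus list and FO replicate 4 scored 0.704, against -0.875 to 0.139 in the other 6 arrays. FO replicates 3 and 4 scored 1.186 and 2.272 on the red blood cell list, against -0.942 to -0.227 in the other 6 arrays. Values without these arrays are given beside several of the results.

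In limma's test over the 6 groups, 10 autosomal probes were higher in FO than in MO at an adjusted p under 0.05 (0.0953% of those tested), and 1 was lower (0.00953%). They named the chemokine genes Ccl4, Ccl3 and Ccl12, the complement gene C1qa, the leukocyte surface genes Cd52, Ms4a6d and Fcrls, the interferon-induced Trim30a, the ubiquitin ligase Peli2 and carboxypeptidase D (Cpd), all higher, and synaptotagmin Syt11, lower. The adjustment ran over all 11509 kept probes, of which 21 were called (0.182%), with sex-linked genes and 1 probe without a gene name making up the rest. When only the 8 old arrays entered the fit, no autosomal probe was called, and the adjusted p of the 11 ranged from 0.135 for Cd52 to 0.747 for Peli2. That fit rests the spread on 8 mice in place of 24. MO replicates 1 and 3 also departed most from their group mean among the 24 arrays (root mean square 0.355 and 0.334). FO arrays lay at 0.15 to 0.26 on this measure. The paper reports a higher expression variance in old males than in old females. A spread shared over the 6 groups may therefore be too small for MO. A wider band of probes did not overlap between the groups: in 348 autosomal probes all 4 FO values lay above all 4 MO values (3.32%), and in 123 they lay below (1.17%). The lean towards higher values depended on the scaling of the arrays, since median centring gave 165 higher and 205 lower and quantile normalization gave 201 higher and 185 lower. The study's methods used another test, a two-way analysis of variance over age and sex followed by pairwise comparisons, with calls limited to changes of at least 1.2-fold. Run on these values, it called 197 autosomal probes higher in FO (1.88%) and 38 lower (0.362%).

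**Figure D1:**
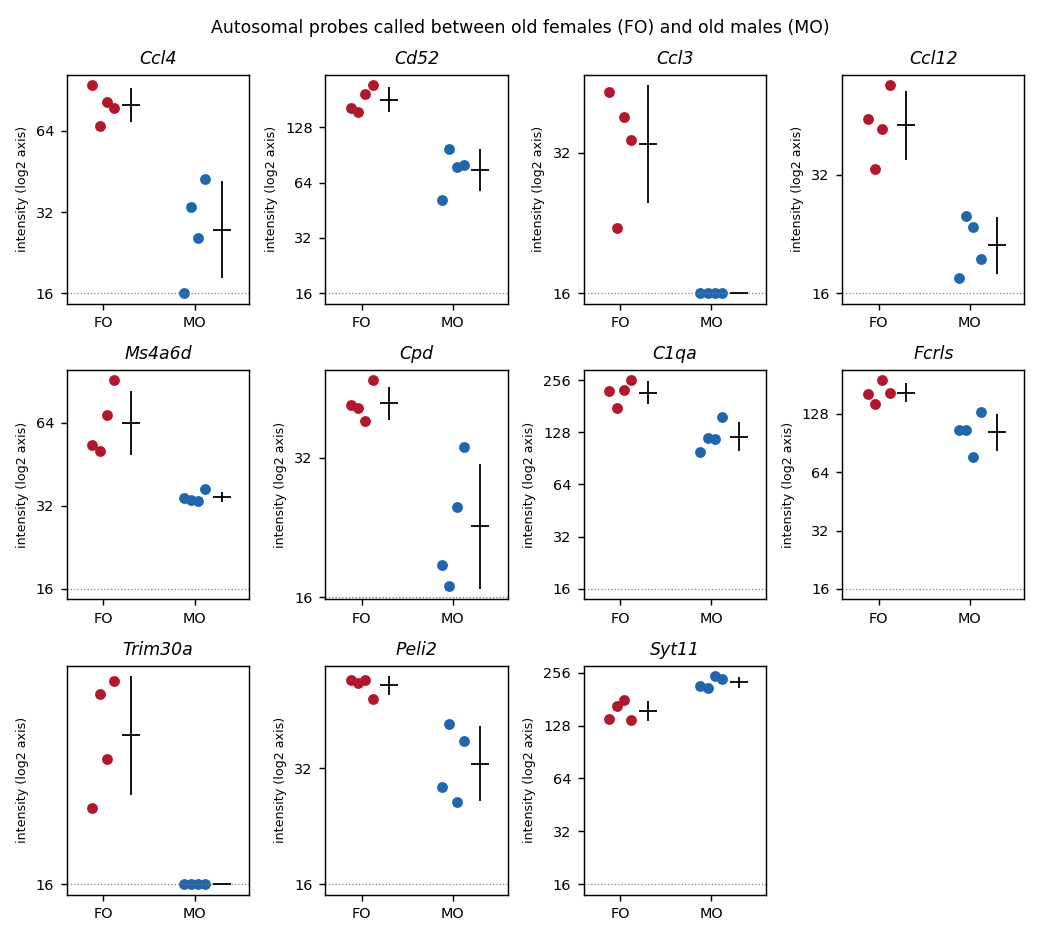
Normalized intensity (log2 axis) of the 11 autosomal probes called between FO (left, red) and MO (right, blue), 1 point per array with values under 16 drawn at 16 (dotted line); black bars are the mean ± SD of the log2 values, n = 4. All 4 FO points lie above all 4 MO points in the first 10 panels, and below them for Syt11.

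Genes of 3 chemokines, which draw leukocytes, were higher in FO. Ccl4 had intensities of 94.7, 66.6, 81.6 and 78.1 in the FO arrays, against 14.4, 33.3, 25.6 and 42.4 in the MO arrays. Its log2 fold change was 1.53 ± 0.19 (SE, adjusted p = 8.97e-05), with the smallest adjusted p of any autosomal probe, and 1 MO array lay under the floor. Ccl3, its neighbour on chromosome 11 and a ligand of the same receptor, had 43.3, 22.1, 38.2 and 34.1 in the FO arrays, against 10.3, 12.6, 10.1 and 16 in the MO arrays. Since all 4 MO values of Ccl3 were at or under the floor, it was at least 2.09-fold higher in FO (adjusted p = 0.000279). Ccl12, a monocyte chemoattractant of the mouse, had 44.5, 33.2, 41.9 and 54.2 in the FO arrays, against 17.5, 25.1, 23.6 and 19.5 in the MO arrays, a log2 fold change of 1.01 ± 0.21 (adjusted p = 0.0496). The calls of Ccl4 and Ccl3 were kept without any one of the 8 old arrays (highest adjusted p 0.000996 and 0.00187) and without MO replicates 1 and 3 together, whereas that of Ccl12 was kept only without FO replicate 2 (adjusted p of 0.267 at most) and was lost without MO replicates 1 and 3 together (adjusted p = 0.34). The floor set the log2 SD of Ccl3 to 0 in every group but FO, and that of Ccl4 to 0 in FY and MY. This narrows the spread that limma shares over the 6 groups, and leaving out an old array cannot show it. With only the old arrays in the fit, limma's adjusted p was 0.319 for Ccl4 and 0.336 for Ccl3. Cxcl16, a membrane-bound chemokine, did not pass (28.6, 17.5, 32.9 and 47.6 in FO, all MO arrays between 12.7 and 13 and so under the floor, adjusted p = 0.137). The remaining chemokines showed no common direction. Of 13 kept genes in the list, 3 were called higher, 4 were higher without overlap (282 of all 7968 autosomal genes, 3.54%, were so) and 7 had a positive log2 fold change. Ccl3, Ccl4 and Cxcl16 passed the filter through FO alone, and over the 10 members above the floor on all 8 arrays the median was -0.0087. Over all 13 it was 0.17, against 0.04 over all autosomal genes, and it was -0.005 with a floor of 32 and 0.33 without MO replicates 1 and 3. The 3 lymphoid chemokine genes Ccl21a, Ccl21b and Ccl21c, which are near-identical copies that 1 probe may not tell apart, had log2 fold changes of -0.048, -0.014 and -0.005, which turned positive without MO replicate 1 or 3.

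Among complement genes of the classical pathway, C1qa was higher in FO. C1qa, the A chain of C1q, had intensities of 220.4, 175.7, 223.3 and 254.9 in the FO arrays, against 98, 118.5, 117.0 and 157.1 in the MO arrays. The log2 fold change of 0.84 ± 0.13 (adjusted p = 0.00164) kept its call without any one old array, with a highest adjusted p of 0.0175, and lost it without MO replicates 1 and 3 together (adjusted p = 0.131). C1qb, the B chain, had 944.6, 735.4, 950.9 and 1255.6 in FO, against 567.0, 724.5, 558.5 and 719.3 in MO, without overlap (log2 fold change 0.58, adjusted p = 0.105). The C chain C1qc had 700.9, 626.9, 854.7 and 915.5 in FO, against 631.3, 516.4, 475.0 and 534.7 in MO, and 1 FO array fell just below the highest MO array (adjusted p = 0.0735). C4b, whose product carries the cascade on from C1q and which astrocytes also make, had 774.4, 617.9, 674.4 and 876.2 in FO, against 350.4, 550.8, 380.8 and 592.9 in MO (log2 fold change 0.67, adjusted p = 0.145). Of the 7 kept complement genes 1 was called, 3 did not overlap and 4 had an unadjusted p under 0.05, and the genes in these counts were all higher in FO. The shares of all autosomal genes were 0.113%, 3.54% and 7.81%. Log2 fold changes were positive in 5 of the 7, against 4972 of all 7968 autosomal genes. With quantile normalization or median centring, 2 complement genes did not overlap. The median log2 fold change of the list was 0.51 in old mice, 0.20 in adult and 0.10 in young mice.

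Surface molecules of microglia and other myeloid cells made up the next group of called genes. Cd52, a small glycoprotein anchored on leukocytes, had 162.8, 155.6, 194.1 and 217.4 in the FO arrays, against 51.7, 96.9, 77.7 and 80.2 in the MO arrays (log2 fold change 1.27 ± 0.25, adjusted p = 0.0342). Ms4a6d, a membrane protein of macrophages, had 53, 50.6, 68.1 and 91.2 in FO, against 34.3, 33.7, 33.2 and 36.7 in MO (0.89 ± 0.17, adjusted p = 0.0265). The MO values of Ms4a6d lay close together, while FO replicate 4 was well above the other FO arrays. Fcrls, an Fc receptor-like molecule that in mouse brain marks microglia, had 161.5, 144.7, 190.5 and 164.0 in FO, against 106.2, 105.9, 76.4 and 130.6 in MO (0.68 ± 0.14, adjusted p = 0.0496). When each old array was left out in turn, Cd52 kept its call only without FO replicate 2, MO replicate 2 or MO replicate 4 (highest adjusted p 0.186, without FO replicate 4), Ms4a6d only without FO replicate 1, FO replicate 2 or MO replicate 4 (highest 0.173), and Fcrls only without FO replicate 2 or MO replicate 4 (highest 0.186). None of the 3 was called without MO replicates 1 and 3 together.

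The calls towards FO held 3 further genes. Trim30a, a mouse TRIM protein that interferon and Toll-like receptor signals raise, had 20.3, 29.1, 23.7 and 30.3 in the FO arrays, against 13.6, 9.3, 7.8 and 12.8 in the MO arrays, and was at least 1.6-fold higher in FO (adjusted p = 0.012; 0.0853 without FO replicate 4, the only single old array whose omission ended the call). Its call was also lost without MO replicates 1 and 3 together (adjusted p = 0.131), with a floor of 8 (adjusted p = 0.0692) and with array weights (adjusted p = 0.0606). Peli2, a ubiquitin ligase of Toll-like and interleukin-1 receptor signalling, had 54.3, 53.2, 54.3 and 48.3 in FO, against 28.6, 41.8, 26.1 and 37.6 in MO (log2 fold change 0.67 ± 0.14, adjusted p = 0.0412). Its FO values were nearly level and its MO values were spread. Cpd, a carboxypeptidase of the secretory pathway, had 41.7, 41.0, 38.5 and 47 in FO, against 18.8, 16.9, 25.1 and 33.8 in MO (0.88 ± 0.18, adjusted p = 0.0496). A second Cpd probe gave 0.45 (adjusted p = 0.483) and overlapped between the groups. Peli2 kept its call without MO replicate 2 or MO replicate 4 alone (highest adjusted p 0.146), and Cpd without MO replicate 4 alone (highest 0.246). Without MO replicates 1 and 3 together neither was called (adjusted p = 0.507 and 0.34), and the log2 fold change of Peli2 was 0.40. Mean log2 values of Cpd were 5.03 to 5.45 in the young and adult groups, 5.39 in FO and 4.51 in MO.

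**Figure D2:**
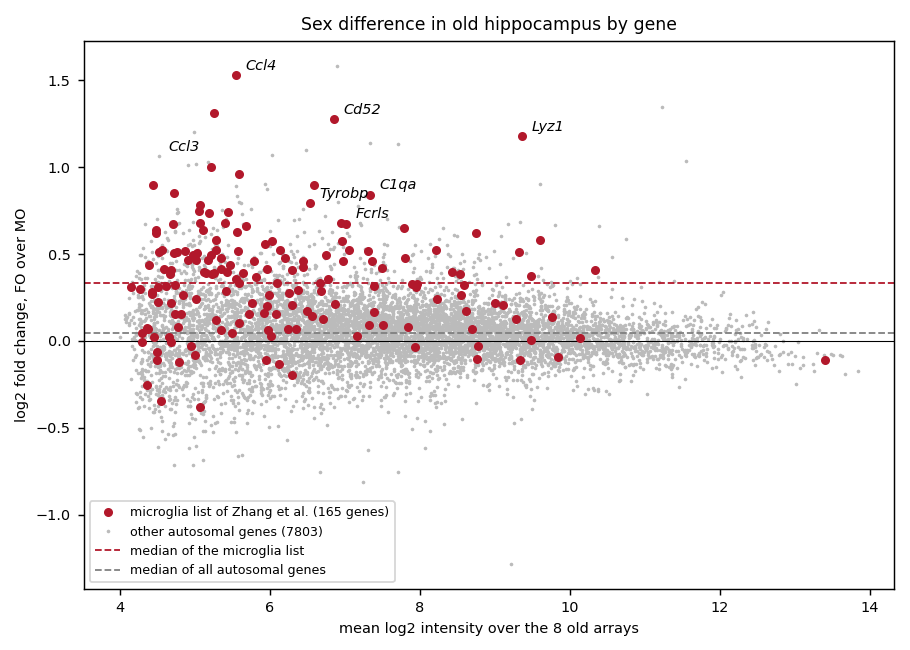
Log2 fold change of FO over MO against the mean log2 intensity over the 8 old arrays, 1 point per autosomal gene, with the 165 kept genes of the microglia list of Zhang et al. in red and the other genes in grey; dashed lines are the medians, 0.34 for the list and 0.04 for all autosomal genes.

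Proximal promoters of the genes above are shown because microglial genes are commonly controlled by PU.1, an ETS family factor that binds around the core AGGAAGT, and interferon genes through the interferon-stimulated response element, searched here as a pair of GAAA with any 2 bases between them. Of 16 genes looked up, the 11 called ones with C1qb, C1qc, Tyrobp, Fcer1g and Lyz1, RefSeq's promoter table (GRCm38.p6) held 11, and these were chosen with their values known. Both strands of the 250 bases before each start were searched. The core AGGAAGT, or ACTTCCT when read on the gene's strand, occurred in C1qb, C1qc, Ccl12, Fcrls and Lyz1, and in 7.69% of all 32851 promoters of the table. The interferon element occurred at 1 of 2 starts of Trim30a, and in 2.98% of all promoters. Neither was found in this window of Ccl3, Cpd, Fcer1g, Peli2 or Syt11. The 4 sequences run 5′ to 3′ on the gene's strand and end at the base before the start, with matches in capitals. They lie at chr4:136892915-136893164 (C1qc, minus strand), chr11:82101595-82101844 (Ccl12, plus), chr3:87263525-87263774 (Fcrls, minus) and chr7:104465194-104465443 (Trim30a, minus).
C1qc: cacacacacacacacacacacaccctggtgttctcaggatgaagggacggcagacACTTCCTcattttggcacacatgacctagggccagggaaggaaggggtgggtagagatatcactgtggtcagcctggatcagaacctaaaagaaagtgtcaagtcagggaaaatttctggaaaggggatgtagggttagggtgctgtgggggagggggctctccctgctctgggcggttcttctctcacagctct
Ccl12: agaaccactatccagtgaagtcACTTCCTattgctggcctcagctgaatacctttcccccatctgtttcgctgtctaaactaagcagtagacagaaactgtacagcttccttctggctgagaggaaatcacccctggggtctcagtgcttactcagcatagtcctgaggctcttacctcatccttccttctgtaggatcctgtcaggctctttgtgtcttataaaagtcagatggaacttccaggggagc
Fcrls: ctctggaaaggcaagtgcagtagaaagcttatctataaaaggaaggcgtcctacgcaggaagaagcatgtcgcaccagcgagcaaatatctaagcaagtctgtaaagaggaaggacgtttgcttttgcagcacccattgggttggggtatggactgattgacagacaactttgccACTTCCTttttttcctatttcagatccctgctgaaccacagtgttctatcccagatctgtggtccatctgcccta
Trim30a: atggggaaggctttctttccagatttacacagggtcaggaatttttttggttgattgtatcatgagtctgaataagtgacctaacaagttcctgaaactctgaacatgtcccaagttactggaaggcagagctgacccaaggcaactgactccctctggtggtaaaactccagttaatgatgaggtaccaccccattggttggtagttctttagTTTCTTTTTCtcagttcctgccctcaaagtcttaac
A match of letters is a description of the sequence and was not tested for binding.

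Microglial genes were mostly higher in FO. Of the 165 kept genes of the microglia list of Zhang et al., taken from purified brain cells, 4 were called higher (Ccl4, C1qa, Cd52 and Fcrls; 0.113% of all autosomal genes were called higher), 35 were higher without overlap, 79 had an unadjusted p under 0.05 towards FO and none of the 165 did towards MO. Across all autosomal genes the unadjusted counts were 622 higher (7.81%) and 159 lower (2%), and 282 (3.54%) were higher without overlap. The log2 fold change was positive for 146 of the 165 genes, with a median of 0.34, and for 4972 of all 7968 autosomal genes. Over the 137 members above the floor on all 8 old arrays the median was also 0.34. List scores were 0.159, 0.038, 0.181 and 0.313 in the FO arrays, against -0.232, -0.174, -0.226 and -0.058 in the MO arrays, so the groups did not overlap. With median centring the median was 0.29, with 26 genes higher without overlap and 1 lower, and with quantile normalization these were 0.29, 24 and 2. Without MO replicates 1 and 3 the median was 0.27, and 46 genes had an unadjusted p under 0.05 towards FO, against 449 of all autosomal genes. In the series' single-cell list of Zeisel et al., 32 of 168 microglial genes did not overlap, all higher in FO (median 0.21), and in the sensome of Hickman et al., the genes by which microglia sense their surroundings, 11 of 36 did so (median 0.42). Over the members above the floor on all 8 old arrays, these medians were 0.20 (146 genes) and 0.33 (31 genes). The lists share members and are not separate evidence. In bulk tissue, more microglia and more RNA per microglial cell cannot be told apart.

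Most markers that define resting microglia were not called, which was also so for the wider microglia list (4 of 165 called). Of 12 kept genes of the homeostatic list, 1 was called (Fcrls), 4 were higher without overlap and 10 were positive, with a median of 0.24. An unadjusted p under 0.05 towards FO was found in 7 of the 12, and in 3 without MO replicates 1 and 3. Of all autosomal genes, 0.113% were called higher, 3.54% were higher without overlap, 7.81% had such an unadjusted p and 4972 of 7968 were positive. With quantile normalization 2 homeostatic genes were higher without overlap, and with median centring 1 was. Tmem119, a microglial membrane protein, had 92.7, 84.1, 116.1 and 115.4 in FO, against 63.1, 74.3, 79.8 and 85.3 in MO (log2 fold change 0.43, adjusted p = 0.313). Olfml3, a secreted microglial protein, had 247.2, 250.1, 310.8 and 304.3 in FO, against 243.3, 210.2, 88.6 and 213.8 in MO (0.65, adjusted p = 0.201), with MO replicate 3 far below the rest. Selplg, a selectin ligand, had 0.33 (adjusted p = 0.186). Cx3cr1, the fractalkine receptor, had 396.9, 374.1, 391.7 and 493.8 in FO, against 372.5, 341.4, 309.9 and 349.2 in MO, without overlap (0.27, adjusted p = 0.362). P2ry12, a purinergic receptor that marks resting microglia, had 61.8, 73.5, 79.2 and 74.0 in FO, against 72.2, 52.3, 44.9 and 102.7 in MO, and overlapped (0.15, adjusted p = 0.902). Aif1, the calcium-binding protein Iba1 used to stain microglia, had 137.7, 113.3, 114.6 and 132.2 in FO, against 87.8, 108.1, 88.4 and 104.1 in MO (0.36, adjusted p = 0.409), and a second probe gave 0.56 (adjusted p = 0.0904). P2ry12 and Cx3cr1 were chosen as markers and fall outside the rule for named genes.

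Receptors of phagocytes had positive values. All 8 kept genes of the Fc receptor list had an unadjusted p under 0.05 towards FO, 6 were higher without overlap and none passed the adjusted test, where 7.81% and 3.54% of all autosomal genes were so in the first 2 counts. The list had a median log2 fold change of 0.46, against 0.06 in young mice and 0.11 in adult mice. Fcer1g, the signalling chain that Fc receptors share, had 514.3, 458.1, 537.7 and 638.1 in FO, against 341.3, 385.2, 288.7 and 378.0 in MO (0.62, adjusted p = 0.0735). Fcgr2b, the inhibitory receptor, had 41.9, 35.0, 53.9 and 48.9 in FO, against 20.9, 34.2, 22.9 and 26.8 in MO (0.78, adjusted p = 0.125). The activating receptors Fcgr1 and Fcgr3 had 0.48 (adjusted p = 0.0982) and 0.55 (adjusted p = 0.159), both without overlap, and the median member, the phospholipase Plcg2, had 0.43 (adjusted p = 0.429). Of 7 kept genes of Toll-like receptor signalling, all 7 were positive, 4 had an unadjusted p under 0.05 and none was called (median 0.46, and 0.30 without MO replicates 1 and 3). Tlr2, which binds bacterial lipoproteins, had 60.6, 51.6, 74.2 and 88.8 in FO, against 40.9, 30.8, 28.7 and 39.6 in MO (0.96, adjusted p = 0.168). Ly86, a partner of Toll-like receptor relatives, had 344.0, 324.9, 384.0 and 376.0 in FO, against 238.6, 254.6, 189.2 and 328.6 in MO (0.52, adjusted p = 0.154), with MO replicate 4 between the FO arrays. The chaperone Unc93b1 and the lipopolysaccharide co-receptor Cd14 had 0.46 (adjusted p = 0.26) and 0.64 (adjusted p = 0.269).

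In the list of the Trem2 pathway and the genes that microglia raise around disease lesions, 23 genes were kept, of which Cd52 was called, 6 were higher without overlap (3.54% of all autosomal genes were), and 18 were positive (median 0.31). Tyrobp, the adaptor through which Trem2 signals, missed the threshold narrowly, with 110.0, 96.4, 148.8 and 144.1 in FO, against 55.4, 68.0, 73.3 and 91.8 in MO (0.79 ± 0.17, adjusted p = 0.0513). Lyz1 and Lyz2 encode the closely similar lysozymes, which their probes may not tell apart. Lyz1 had 1008.5, 602.0, 1017.3 and 1588.7 in FO, against 388.5, 493.0, 336.8 and 579.7 in MO (1.18, adjusted p = 0.105), and Lyz2 had 299.7, 167.3, 436.3 and 422.2 in FO, against 147.9, 158.7, 97.7 and 175.1 in MO, with overlap (1.13, adjusted p = 0.215). FO replicate 2 was the lowest FO array for both. Gpnmb, a lysosome-associated glycoprotein, had 210.6, 160.8, 174.1 and 310.2 in FO, against 127.9, 137.9, 70.5 and 145.3 in MO (0.83, adjusted p = 0.159). Of 28 lysosomal genes 3 were higher without overlap, none was called, and the median was 0.07. Hexa, a subunit of hexosaminidase, and the protease cathepsin H (Ctsh) had 0.39 (adjusted p = 0.154) and 0.53 (adjusted p = 0.215), without overlap. Cathepsin Z (Ctsz), the proton pump subunit Tcirg1 and the median member cathepsin B (Ctsb) had 0.52 (adjusted p = 0.321), 0.29 (adjusted p = 0.408) and 0.06 (adjusted p = 0.902), with overlap.

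**Figure D3:**
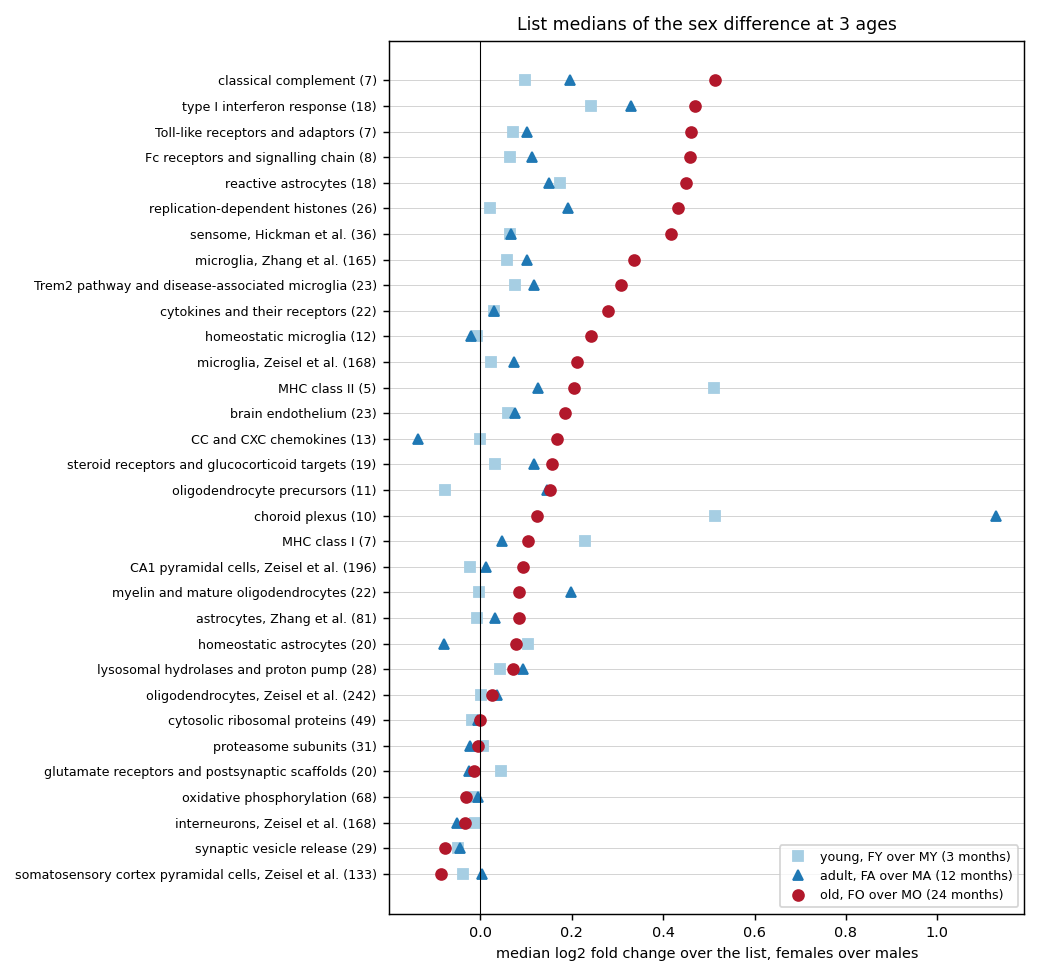
Median log2 fold change of females over males for each gene list, in young (squares), adult (triangles) and old mice (circles), with the number of kept genes in brackets. Lists with fewer than 5 kept genes are left out. The 11 plotted lists with the highest old medians, 0.24 to 0.51, are of immune, histone or reactive astrocyte genes, and the plotted lists of neuronal, ribosomal, proteasome and respiratory genes lie between -0.09 and 0.09 in old mice. The dentate granule cell list (4 kept genes, old median 0.53) is not plotted.

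Interferon-response genes were positive in all 18 kept members, with 1 called (Trim30a), 4 higher without overlap and 7 with an unadjusted p under 0.05. Of all autosomal genes, 0.113%, 3.54% and 7.81% were so, and 4972 of 7968 had a positive log2 fold change. Usp18, a protease that removes the ubiquitin-like ISG15, had 38.7, 49.8, 30.5 and 76.0 in FO, against 27.3, 20.9, 23 and 20.3 in MO (1.02, adjusted p = 0.269). Oasl2, of the oligoadenylate synthetase family, had 64.3, 116.2, 62.8 and 104.8 in FO, against 42.0, 43.4, 49.4 and 44.9 in MO (0.90, adjusted p = 0.149). FO replicates 2 and 4 were the highest FO arrays in both genes. Irf9, a subunit of the factor that transmits type I interferon signals, had 95.5, 104.3, 95.7 and 116.7 in FO, against 71.8, 78.1, 70.8 and 73.8 in MO (0.48, adjusted p = 0.201). Ifi27l2a, an interferon-induced mitochondrial protein that is on the microglia list and not on the interferon list, had 50.7, 71, 39.3 and 92.3 in FO, against 24.5, 19.7, 28.1 and 25.2 in MO (1.31, adjusted p = 0.18). The list's median was 0.47 in old mice and 0.32 without FO replicate 4, whose score was 0.692, against at most 0.234 in the other FO arrays and at most -0.105 in the MO arrays. It also had positive medians in young (0.24) and adult mice (0.33), in which no autosomal probe was called by limma. Antigen presentation genes had no call. Of 7 kept class I genes none was called and 1, B2m, the light chain of class I, did not overlap (0.31, adjusted p = 0.433), while the immunoproteasome subunits Psmb9 and Psmb10 had 0.45 (adjusted p = 0.658) and -0.14 (adjusted p = 0.754), and the median member H2-M3 had 0.11 (adjusted p = 0.893). None of 5 class II genes was called or free of overlap (median 0.20 in old, 0.51 in young mice).

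Cytokine signalling genes were positive in 21 of 22 members, with none called and 4 higher without overlap, against 3.54% of all autosomal genes. The list's median was 0.28, and 0.17 without MO replicates 1 and 3. Osmr, the oncostatin M receptor, had 93.8, 87.4, 100.6 and 90.4 in FO, against 68.7, 66.0, 59.2 and 66.2 in MO (0.52, adjusted p = 0.154). Il10ra, for interleukin 10, had 30.3, 23.9, 27.6 and 30.6 in FO, against 15.2, 16.5, 22.8 and 17.3 in MO (0.64, adjusted p = 0.159), and Csf3r, for granulocyte colony-stimulating factor, had 0.58 (adjusted p = 0.192), both without overlap. Tgfbr1, a receptor of transforming growth factor beta, and Il6st, the shared signal chain of interleukin 6 receptors, had 0.26 (adjusted p = 0.313) and 0.28 (adjusted p = 0.588), with overlap.

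Reactive astrocyte genes were positive in 17 of 18 members (4 without overlap, none called, median 0.45, against 0.17 in young and 0.15 in adult mice). Of all autosomal genes, 3.54% were higher without overlap, and with median centring 3 members of the list were. C4b and Osmr, given above under complement and cytokines, are also on this list and did not overlap, so the lists are not separate evidence. Serpina3n, a secreted protease inhibitor of reactive astrocytes, had 1173.7, 832.3, 918.1 and 1441.6 in FO, against 616.4, 845.8, 223.1 and 910.0 in MO (0.90, adjusted p = 0.194), and overlapped, with MO replicate 3 lowest. Cd44, an adhesion receptor, had 30.5, 23.1, 40.9 and 28.9 in FO, against 22.6, 18.8, 11.7 and 21.6 in MO (0.63, adjusted p = 0.137). The median member, the asparaginase Aspg, had 0.43 (adjusted p = 0.507). The list's scores were 0.186, -0.027, 0.3 and 0.388 in FO, against -0.18, -0.237, -0.363 and -0.066 in MO, and its median was 0.33 without MO replicate 3. General astrocyte genes were also described by their medians. The list of Zhang et al. had a median of 0.08 over 81 genes with 5 higher without overlap (6.17%, against 3.54% of all autosomal genes, and 1 gene with median centring), and the homeostatic astrocyte list had 0.08 over 20 genes with none.

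Replication-dependent histone genes, whose messenger RNAs mostly lack a poly(A) tail, were positive in 25 of 26 members. None was called, 11 were higher in FO without overlap (3.54% of all autosomal genes were) and 19 had an unadjusted p under 0.05 towards FO (7.81% of all). H2ac7 had 113.9, 123.4, 104.7 and 89.8 in FO, against 60.6, 83.2, 43.2 and 87.1 in MO (0.70, adjusted p = 0.123). H4c6 had 29.7, 28.5, 40.9 and 43.8 in FO, against 20.4, 21.4, 11.2 and 28.1 in MO (0.74, adjusted p = 0.154), and H2bc6 had 88.1, 73.3, 89.4 and 88.3 in FO, against 67.0, 57.6, 21.1 and 55.1 in MO (0.88, adjusted p = 0.172). MO replicate 3 was the lowest array for all of these. H2ac15 and the median member H2bc4 had 0.47 (adjusted p = 0.172) and 0.42 (adjusted p = 0.297). Without MO replicate 3 the list's median was 0.35 and 14 genes had an unadjusted p under 0.05, and without MO replicates 1 and 3 these were 0.32 and 7. These genes are near-identical copies within clusters, so a probe may read several. The RNA was copied from an oligo(dT) primer before hybridization.

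Genes of the vessel wall and blood were less even. Brain endothelial genes were positive in 20 of 23 members, but none was called or free of overlap (median 0.18, and 0.09 without FO replicate 4). Ramp2, a co-receptor for adrenomedullin, had 507.5, 608.5, 480.5 and 659.7 in FO, against 309.3, 514.5, 376.5 and 512.5 in MO (0.42, adjusted p = 0.25). Mfsd2a, a lipid transporter of the blood-brain barrier, and the adhesion molecule Icam2 had 0.32 (adjusted p = 0.362) and 0.53 (adjusted p = 0.432), and Vwf, the von Willebrand factor, had 127.4, 151.6, 154.6 and 426.3 in FO, against 77.8, 118.8, 205.6 and 77.3 in MO (0.78, adjusted p = 0.47). The median member, the vascular endothelial growth factor receptor Flt1, had 0.18 (adjusted p = 0.543). The haemoglobin genes Hba-a1 and Hbb-bt followed FO replicates 3 and 4. Hba-a1 had 2397.6, 2363.0, 5157.0 and 11676.5 in FO, against 2773.8, 2230.2, 1514.0 and 2074.1 in MO (1.03, adjusted p = 0.215), and Hbb-bt had 73.8, 95.1, 358.5 and 713.6 in FO, against 55.4, 49.9, 63.9 and 125.7 in MO (1.58, adjusted p = 0.218). FO replicates 3 and 4 were also the highest FO arrays in the microglia score, and the part of blood in that score was not tested. Without FO replicate 3 the microglial median was 0.35, and without FO replicate 4 it was 0.31. Of the choroid plexus list, 7 of 10 genes were positive (4972 of all 7968 autosomal genes were) and in all 10 the groups overlapped. Ttr, its thyroid hormone carrier, had 3498.4, 2684.8, 2522.1 and 9209.5 in FO, against 15647.8, 659.0, 937.0 and 536.3 in MO (1.35, adjusted p = 0.72).

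**Figure D4:**
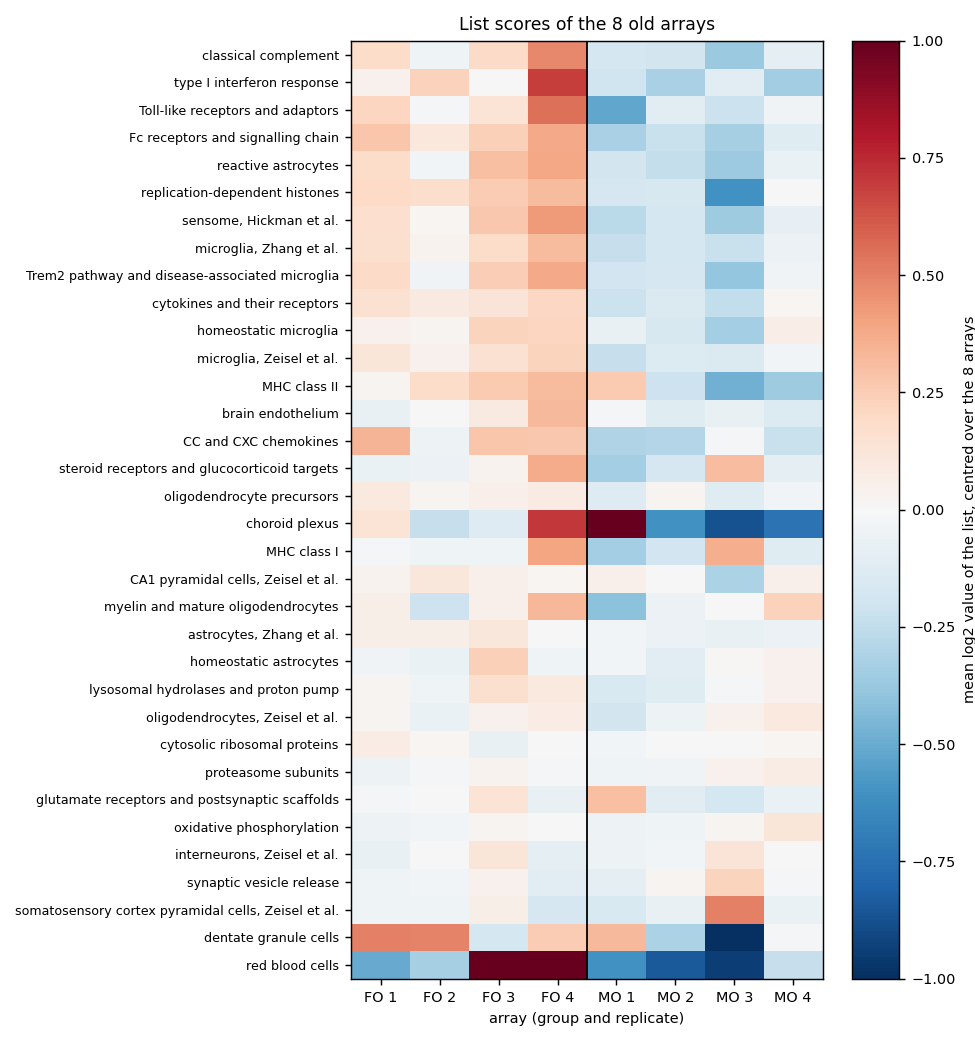
List score by array for FO (left 4 columns) and MO (right 4 columns), as the mean log2 value of a list centred over the 8 arrays, red above and blue below 0, with colours ending at -1 and 1. The microglial, complement, Fc receptor and histone rows are redder in FO than in MO, and the choroid plexus, dentate granule and red blood cell rows follow single arrays (1.739 in MO 1, -1.081 in MO 3, 2.272 in FO 4).

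The 123 autosomal probes that were lower in FO without overlap (1.17%) held several dim probes of genes with a brighter one. With only the brightest probe of each gene, 71 genes were lower without overlap (0.891%) and none was called. The values of Syt11, Mapk9, Kif1b, Gpx4, Csnk1d and Mat2b given first below come from probes that are not the brightest of their gene. Syt11, a synaptotagmin of neurons and glia, had 140.3, 164.8, 179.9 and 137.6 in the FO arrays, against 214.0, 209.7, 244.7 and 234.2 in the MO arrays (log2 fold change -0.54 ± 0.11, adjusted p = 0.0496). Its call was kept only without FO replicate 3, with a highest adjusted p of 0.267, and was lost without MO replicates 1 and 3 together (adjusted p = 0.34), and the other kept Syt11 probes, 1 of them far brighter, gave -0.08 and -0.05 (adjusted p 0.842 and 0.97). Mapk9, the stress kinase JNK2, had 20.1, 27.1, 23.1 and 22.7 in FO, against 39, 32.9, 35.7 and 31.5 in MO (-0.58, adjusted p = 0.0518), while its brightest probe gave -0.14 (adjusted p = 0.516). The others among the 10 smallest without overlap were Gpr137b (-0.61, adjusted p = 0.221), Tmem151a (-0.61, adjusted p = 0.183), the kinesin Kif1b (-0.59, adjusted p = 0.261), the glutathione peroxidase Gpx4 (-0.56, adjusted p = 0.25), the casein kinase Csnk1d (-0.55, adjusted p = 0.154), the potassium channel partner Kcnip4 (-0.55, adjusted p = 0.347), the zinc transporter Slc30a4 (-0.55, adjusted p = 0.228) and Mat2b, a subunit of methionine adenosyltransferase (-0.53, adjusted p = 0.155). In Slc30a4, 3 FO arrays were under the floor. Other probes of several of these genes did not move alike: a second Gpx4 probe gave -0.14, another Kif1b probe gave 0.58, and another Csnk1d probe gave 0.06. Among the largest changes towards FO without overlap, Depp1, first described as induced by progesterone in human endometrial cells, was on no list. It had 39.6, 34.9, 36.8 and 105.6 in FO, against 2.9, 12.4, 24.2 and 31.0 in MO (1.2, adjusted p = 0.0866).

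Neuronal, oligodendrocyte and housekeeping lists are set beside the median of all autosomal genes, 0.04. Of all autosomal genes, 3.54% were higher and 0.891% lower without overlap, and 7.81% were higher and 2% lower at an unadjusted p under 0.05. The 4 kept dentate granule cell genes had a median of 0.53, and of 0.19 without MO replicate 3, with none free of overlap. Oligodendrocyte precursor genes had 0.15 over 11, with 1 higher and 1 lower without overlap. The CA1 pyramidal list of Zeisel et al. had a median of 0.09, and of 0.01 without MO replicate 3, and the somatosensory cortex list had -0.09 over 133 genes, which was 0.06 without that array. Interneuron genes had -0.03 over 168 genes and oligodendrocyte genes 0.02 over 242 genes, the latter with 3 higher and 3 lower without overlap (1.24% each). Synaptic vesicle genes had -0.08 over 29, glutamate receptor and postsynaptic genes -0.01 over 20, and oxidative phosphorylation genes -0.03 over 68, with none called or free of overlap in these 3 lists and 0, 1 and 1 with an unadjusted p under 0.05. Ribosomal protein genes had -0.001 over 49. Proteasome genes had -0.01 over 31, with 2 lower without overlap (6.45%). Dlg4, the postsynaptic scaffold PSD-95, had 254.1, 299.6, 364.4 and 317.2 in FO, against 548.1, 281.9, 273.6 and 273.5 in MO (-0.10, adjusted p = 0.913), which was 0.15 without MO replicate 1. Surf1, an assembly factor of cytochrome oxidase, had -0.24 (adjusted p = 0.464).

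The sex difference was then set beside those of younger mice. No autosomal probe was called between FY and MY or between FA and MA (698 and 689 had an unadjusted p under 0.05, 6.65% and 6.57%), against 1040 (9.91%) in old mice. Tested directly, the old sex difference less the young one passed the adjusted threshold for none of the 11509 probes, with 686 at an unadjusted p under 0.05 (5.96%). A change of the sex difference with age was thus not shown for any single gene. Ccl4 and Ccl3 were at or under the floor in every FY and MY array, so their young sex difference was fixed at 0 without spread. Their old less young differences had unadjusted p-values of 8.54e-06 and 2.43e-05 (limma, adjusted p = 0.0983 and 0.14), which therefore measure the spread between mice only in part. The same comparison gave 0.000165 for C1qa, 0.00172 for Cd52 and 0.000474 for Peli2, and 0.155 for Syt11, which had log2 fold changes of -0.31 in young and -0.33 in adult mice. The microglia list had medians of 0.06 in young, 0.10 in adult and 0.34 in old mice, and the histone list 0.02, 0.19 and 0.43.

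**Figure D5:**
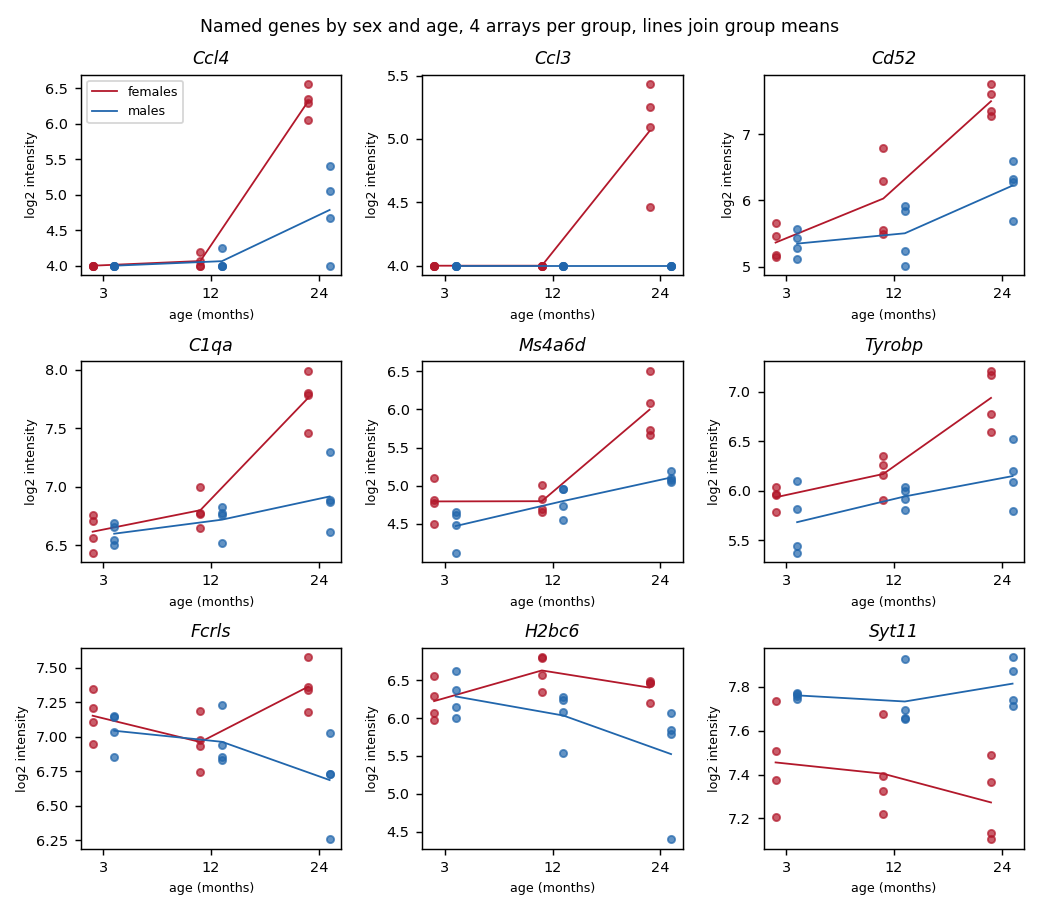
Log2 intensity by age (3, 12 and 24 months) for 9 named genes, females in red and males in blue, 1 point per array with values under 16 drawn at 4 and lines joining group means. For Ccl4, Ccl3, Cd52, C1qa, Ms4a6d and Tyrobp the female line stands above the male line at 24 months, for Fcrls and H2bc6 the male line is lower at 24 months than at 3 months, and for Syt11 the female line is lower at all 3 ages.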

How the data were processed

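RNA from mouse hippocampus was hybridized to Illumina Mouse Ref8 arrays, and the authors subtracted background and scaled the deposited intensities to a common mean (the submitters' notes name GenomeStudio 2011.1). The mean intensity over the deposited arrays is 206.6, and 22.4% of values lie below 0. Of a second table, 48 columns of signal and detection p-values were not used, since their names pair with no sample. Intensities were floored at 16 and log2 transformed here. Probe names came from the platform annotation, which gave 23978 of 25697 probes 1 gene and 1719 none. A linear model of limma 3.58.1 (R 4.3.3) held all 6 groups, with a variance trend and Benjamini-Hochberg adjustment over all kept probes, tested on simulated data. Lists used the brightest probe of a gene. Named genes were those called, the 10 largest and 10 smallest log2 fold changes without overlap, up to 4 members of a described list by unadjusted p with its median member where none was called, and genes the study names. For some lists only counts and medians are given, a choice made after their values were seen. P2ry12, Cx3cr1 and Ttr fall outside the rule. Members and lists were chosen with earlier results of these data known. Alternatives covered the floor, filter, scaling, arrays in the fit, array weights, the methods' test, omitted arrays and a replicate block. Nothing states that mice were littermates or handled together, and p-values measure the spread between these mice, less any spread hidden by the floor. The number of arrays limits the precision.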

Additional observations from a re-analysis of the deposited data

Results flagged for a closer look

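For 81 named genes in FO and in MO, 10 groups of 4 arrays had 1 array that stood apart from the other 3 by more than Dixon's limit, which chance passes in about 1 of 20 groups. In FO, replicate 4 had 105.6 for Depp1 (others 35 to 40), 426.3 for Vwf (others 127 to 155) and 17.7 for Slc30a4 (others under the floor). FO replicate 3 had 39.5 for Plcg2 (others 56 to 57) and FO replicate 2 had 73.3 for H2bc6 (others 88 to 89). In MO, replicate 3 had 21.1 for H2bc6 (others 55 to 67), 88.6 for Olfml3 (others 210 to 243) and 64.2 for Tmem151a (others 34 to 35). MO replicate 1 had 548.1 for Dlg4 (others 273 to 282) and 15647.8 for Ttr (others 536 to 937).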

How the results depend on the processing

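Among autosomal probes, 10 were called higher in FO and 1 lower. Higher calls numbered 10 with a floor of 8 (7 of them the same) or 32 (6 the same), 5 without a filter, 6 with quantile normalization, 6 with median centring, 0 with only the FO and MO arrays in the fit (where 359 autosomal genes were higher and 61 lower at limma's unadjusted p under 0.05), 3 with array weights, 197 with the methods' test, 3 without MO replicates 1 and 3, and 3 to 27 when each old array was left out. The higher calls numbered 6 without FO replicate 1, 18 without FO replicate 2, 4 without FO replicate 3, 3 without FO replicate 4, 4 without MO replicate 3 and 27 without MO replicate 4. Lower calls numbered 2 with a floor of 8, 0 without a filter, 2 with median centring, 0 with only the old arrays, 0 with array weights, 38 with the methods' test, 0 without MO replicates 1 and 3, and 0 to 2 when each old array was left out. Probes without overlap, 348 higher and 123 lower, numbered 201 and 185 with quantile normalization, 165 and 205 with median centring, and 1288 and 596 without MO replicates 1 and 3, and ranged over 457 to 747 and 154 to 327 when each array was left out, where fewer arrays make a gap more frequent. The old less young sex difference had 0 calls, 1 with a floor of 32, 1 with array weights and 0 to 2 with an array left out. With a replicate block, 9 probes were called higher, 7 of them the same, and 1 lower. Ccl12, Cpd and Peli2 lost their calls (adjusted p = 0.0673, 0.0673 and 0.0579 by limma). The deviations of same-numbered old arrays correlated at -0.197, 0.283, 0.0977 and 0.072, with 1 of 4 arrays closest to its own number, so the numbers were not read as pairs. Of 1524 gene values under the alternatives, 24 turned sign, in 6 genes with no call. With array weights Ccl21a, Ccl21b, Ccl21c and Ctsb were 0.113, 0.204, 0.108 and -0.004. Without MO replicates 1 and 3 they were 0.294, 0.382, 0.328 and -0.021, and Dlg4 was 0.142. With 1 old array left out, they ranged over -0.202 to 0.106 (Ccl21a), -0.168 to 0.163 (Ccl21b), -0.182 to 0.135 (Ccl21c) and -0.021 to 0.125 (Ctsb), Dlg4 over -0.186 to 0.149 and H2-M3 over -0.05 to 0.251. Of 665 list medians, 8 moved by more than the spread between arrays. Values at the floor limit the fold changes of Ccl3, Ccl4, Cd44, Cxcl16, Depp1, Fcgr1, H4c6, Il10ra, Slc30a4 and Trim30a. They also hide spread within a group, so the p-values of these genes can be too small.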
